A study of Homo sapiens with 12 samples.

Results

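The genes described here are those of homologous recombination and the Fanconi anaemia pathway, measured in U2OS, a cell line from a human osteosarcoma that keeps wild-type p53. They were chosen by name, as 33 genes of these pathways, and 29 of them had at least 1 probe set that the platform annotation pairs with that gene alone, of 19775 genes so paired in all. *BRCA2*, *FANCA*, *FANCD2* and *RBBP8* were not analysed here. Each gene was read from its probe set with the highest mean over the 12 arrays, and 28 of the 29 passed the filter on dim probe sets and entered the tests over 13673 genes. *XRCC3*, a gene of strand exchange, did not pass it, and its signals lay between 4.8 and 108 over the 12 arrays. Its doxorubicin and untreated arrays overlapped, while its nutlin-3 arrays, at 4.8 to 60.9, lay below the DMSO arrays, at 68.8 to 84.2. The nutlin-3 arrays overlapped the untreated ones, at 8.7 to 63.2. Among all genes tested 43.1% had no overlap between nutlin-3 and DMSO arrays.

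Transcripts were measured on Affymetrix Human Genome U133 Plus 2.0 arrays, which read each transcript with 1 or more probe sets. The 4 groups of 3 arrays were U2OS cells in 0.6 µg/ml doxorubicin, which traps topoisomerase II on DNA and leaves breaks, untreated U2OS cells as its control, U2OS cells in 10 µM nutlin-3, which frees p53 from MDM2 without breaking DNA, and U2OS cells in 0.1% DMSO as the control for nutlin-3. Exposure to each agent and to DMSO lasted 24 hours, and the labels do not say whether the nutlin-3 cultures also held DMSO. All groups are the same cell line with its own p53, and the labels do not say whether replicates were separate cultures, and the spread that p-values are set against is that between arrays, which may be technical.

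Homologous recombination repairs a broken DNA end by copying an intact sister chromatid. The MRE11-RAD50-NBN complex binds the ends and helps to trim them, BRCA1 with BARD1, PALB2 and BRCA2 prepares the single strands, and a further set of proteins carries out the strand exchange. The Fanconi proteins recognise DNA crosslinks and stalled forks: a core complex attaches ubiquitin to FANCD2 and FANCI, which then recruits nucleases and the recombination proteins. A sister chromatid is present in the S and G2 phases, and many of these genes are known to be transcribed mainly in cycling cells.

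Both agents raised the p53 targets used as a check of the labels. *CDKN1A*, the gene of the cell cycle inhibitor p21, had signals of 6882, 8951 and 7200.4 with doxorubicin against 1352, 1399 and 1333 in untreated cells, and 7361, 7143 and 7906 with nutlin-3 against 1292, 1603 and 1627 in DMSO. *MDM2* rose by 1.42 with doxorubicin and by 2.14 with nutlin-3 on the log2 scale. Within a group, the correlation between arrays over genes was 0.980 to 0.991. The mesenchymal genes *COL1A1*, *SPARC*, *VIM* and *RUNX2* passed the filter, while *COL1A2* and *ALPL* did not. Of 8 annotated epithelial, leukocyte and endothelial markers 5 passed it. The summed signal of the 3 epithelial markers was 1401 to 1713 with doxorubicin against 2005 to 2169 in untreated cells, and 779.5 to 853 with nutlin-3 against 1069 to 1247 in DMSO. The sums were 139 to 199 with doxorubicin against 81.8 to 147 in untreated cells for 2 leukocyte markers, and 229 to 313 against 209.9 to 261 for 3 endothelial markers. With nutlin-3 against DMSO these sums were 61.5 to 141 against 74.9 to 104, and 142 to 184 against 121 to 165. The ratio of 3' to 5' signal of *ACTB*, a sign of RNA quality, was 2.48 to 3.59 with doxorubicin against 1.44 to 1.58 in untreated cells, and 1.28 to 1.33 with nutlin-3 against 1.25 to 1.30 in DMSO. That of *GAPDH* was 0.99 to 1.21 with doxorubicin against 0.98 to 1.05 in untreated cells. For the spiked-in Dap control, which is not RNA of the cells, the ratio was 3.47 to 8.51 with doxorubicin against 2.40 to 2.92 in untreated cells. With nutlin-3 against DMSO the *GAPDH* ratio was 0.94 to 0.97 against 0.93 to 0.95, and the Dap ratio 2.46 to 2.55 against 2.60 to 2.65. The part of the epithelial markers and of these ratios in the results below was not tested. The median doxorubicin change without the arrays of highest *ACTB* ratio is given with those results.

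Nutlin-3 lowered most of these genes. Of the 28 members tested, 17 fell (60.7%) and only *RAD51C* rose, where 26.4% of all genes tested were called, 13.9% lower and 12.5% higher. A gene was called when its adjusted p over all 13673 genes was under 0.05. The median log2 change of the members was -0.61, beside 0.01 over all genes tested. The 10 members not called had changes between -0.42 for *FANCE* and 0.20 for *RAD52*. The treated and control arrays did not overlap for 19 members that were lower and 4 that were higher, while 43.1% of all genes tested had no overlap.

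**Figure D1:**
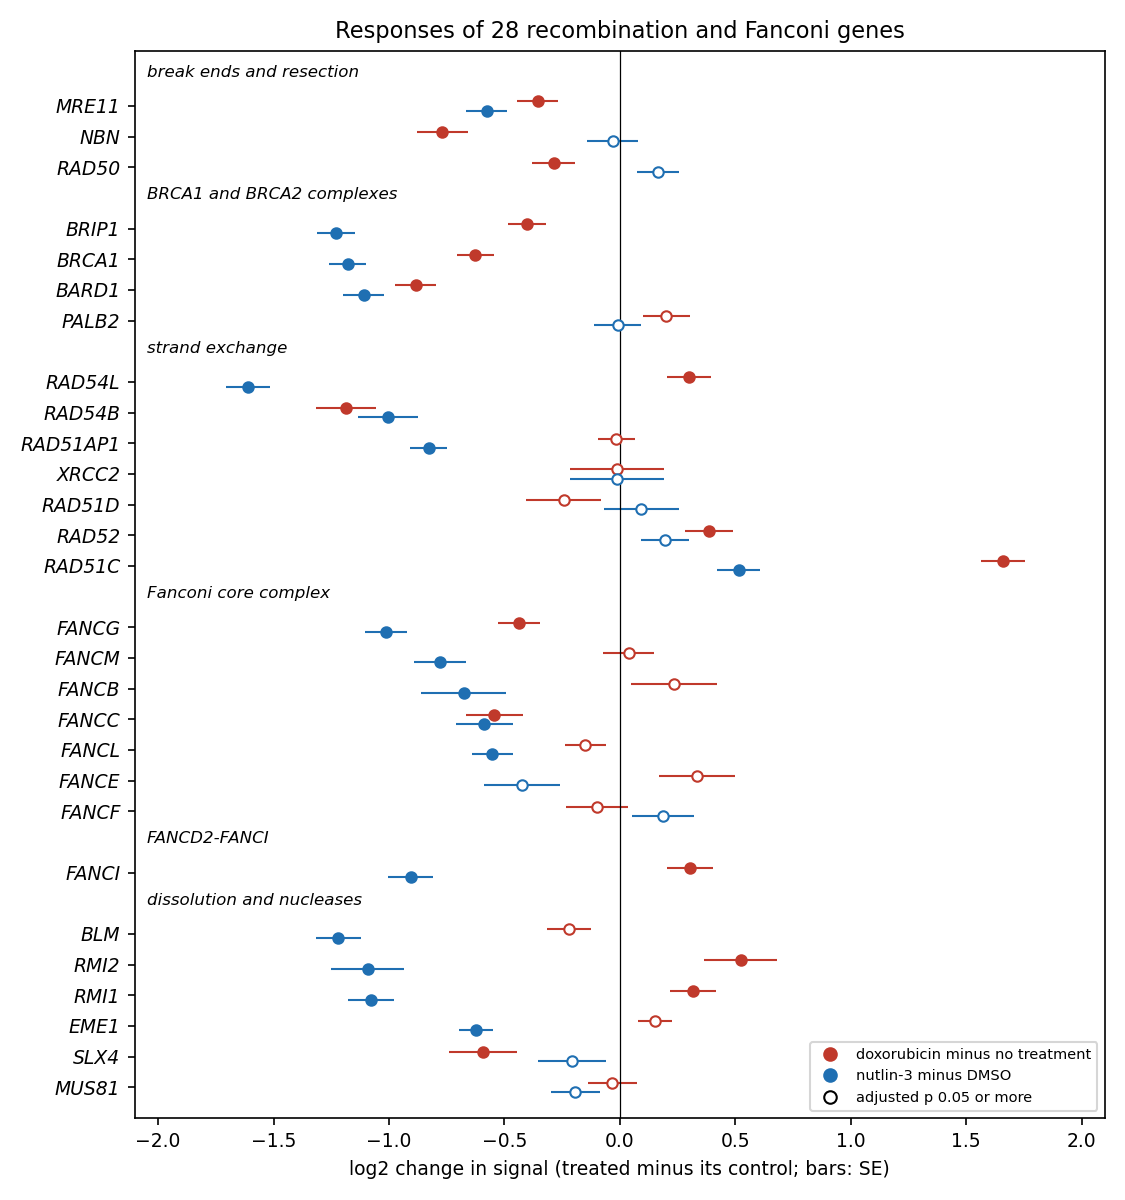
Log2 change in signal (x axis, bars are SE) of the 28 members tested, grouped by role, for doxorubicin minus no treatment (red) and nutlin-3 minus DMSO (blue), n = 3 arrays a group. Open points had an adjusted p of 0.05 or more. Most blue points lie left of 0, 17 of them called, whereas the red points lie on both sides.

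Genes of the BRCA1 complexes fell together with nutlin-3. *BRCA1*, the ubiquitin ligase subunit that promotes end trimming, had signals of 878, 891 and 870.3 with nutlin-3 against 1971, 2027 and 2039.9 in DMSO. The groups lay far apart, with a log2 change of -1.18 (SE 0.08, adjusted p = 1.3e-08). *BARD1*, its partner subunit, had 1079, 1167 and 1164 with nutlin-3 against 2266, 2515 and 2642 in DMSO, a change of -1.11 (SE 0.09). *BRIP1*, a helicase that binds BRCA1, had 1172, 1124 and 1042 with nutlin-3 against 2845, 2510.2 and 2539.8 in DMSO, a change of -1.23 (SE 0.08). All treated arrays of these 3 genes lay below all their controls. *PALB2*, which links BRCA1 to BRCA2, had a change of -0.01 (SE 0.10, 95% interval -0.23 to 0.21).

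Strand exchange genes moved in different directions with nutlin-3. *RAD54L*, a motor protein that remodels DNA during strand exchange, had signals of 498, 459 and 418 with nutlin-3 against 1493, 1485 and 1314 in DMSO. Its change of -1.61 (SE 0.10, adjusted p = 3.1e-09) was the furthest below 0 among the members. *RAD54B*, its relative, fell by 1.00 (SE 0.13), and *RAD51AP1*, which stimulates strand exchange, fell by 0.83 (SE 0.08). *RAD51C*, which acts in strand exchange, had 4603, 5182 and 5380.3 with nutlin-3 against 3247, 3684 and 3661 in DMSO, a rise of 0.52 (SE 0.09, adjusted p = 0.00050). Its other probe set rose by 0.54. *RAD51D* and *XRCC2*, which act in the same step, were not called, with changes of 0.09 (SE 0.16) for *RAD51D* and -0.01 (SE 0.20) for *XRCC2*.

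Of 7 Fanconi core complex genes tested 5 fell with nutlin-3, where 13.9% of all genes did. *FANCG*, a scaffold subunit, had 1058, 1025 and 1055 with nutlin-3 against 1992, 2179 and 2215 in DMSO, a change of -1.01 (SE 0.09). *FANCM*, a translocase that anchors the complex to DNA, fell by 0.78 (SE 0.11), *FANCB* by 0.68 (SE 0.19), *FANCC* by 0.59 (SE 0.12) and *FANCL*, the ubiquitin ligase subunit, by 0.55 (SE 0.09). *FANCE* at -0.42 (SE 0.16) and *FANCF* at 0.19 (SE 0.13) did not pass. *FANCI*, the partner of FANCD2, had 2701, 2957 and 2940.4 with nutlin-3 against 5713, 5036 and 5405 in DMSO, a change of -0.91 (SE 0.10).

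Genes that resolve recombination intermediates also fell with nutlin-3, 4 of 6, where 13.9% of all genes did. *BLM*, the helicase that unwinds double Holliday junctions, had 754, 593 and 694 with nutlin-3 against 1623, 1531 and 1639 in DMSO, a change of -1.22 (SE 0.10). Its partners *RMI1* and *RMI2* fell by 1.08 (SE 0.10) and 1.09 (SE 0.16). *EME1*, the regulatory subunit of the MUS81 nuclease, fell by 0.62 (SE 0.07). The catalytic partner *MUS81* at -0.19 (SE 0.11) and *SLX4*, a nuclease scaffold, at -0.21 (SE 0.15) did not pass. Among the genes of break ends *MRE11*, the nuclease, fell by 0.58 (SE 0.09). Its partners *NBN* at -0.03 (SE 0.11) and *RAD50* at 0.17 (SE 0.09) were not called.

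The falls held against either control except for *FANCL*. Its signals were 3549.6, 3767 and 3593 with nutlin-3, 5530.2, 5036 and 5468 in DMSO and 3618, 4002 and 3633 in untreated cells. The nutlin-3 arrays were thus low against DMSO and overlapped the untreated arrays (-0.04, SE 0.09, adjusted p = 0.74 against untreated). Against untreated cells 16 members were called lower and 3 higher, the added rises being *RAD50* (0.37, SE 0.09) and *RAD52* (0.44, SE 0.10). Over all genes 5432 were called with this control, 53.4% of them higher, beside 3613 and 47.4% against DMSO. The fall of *FANCB* was lost without nutlin-3 array 2 (adjusted p = 0.058).

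Promoters were read because 17 members fell together. The RefSeq table of assembly GRCh38.p14 held a promoter, from 250 bases before the start to 50 bases from it, for 29 of the 33 genes. It held none for *FANCI*, *NBN*, *RAD54B* and *RMI2*. Only 1 window per gene was read, at 1 annotated start, so a word at another start of the gene was missed. For *MRE11*, *RBBP8* and *RAD52* the window lay inside the gene span, away from its ends. The words searched on both strands were TTCCCGC or TTGGCGC for an E2F site, TTTGAA for the cell cycle element called CHR, and CCAAT for the NF-Y box. The reverse of TTGGCGC can share its last bases with CCAAT, and such matches were counted for both. An E2F word was present in 16 of 29 member promoters (55.2%), against 9.33% of all 27305 promoters and 14.4% of the 11013 promoters of genes tested. It was present in 9 of 14 member promoters of genes that fell with nutlin-3 (64.3%), against 22.5% of the 1594 promoters of all genes that fell, and in 4 of 10 of those tested that did not. CCAAT was present in 12 of 29 (41.4%), against 35.7% of all promoters and 36.2% of those of genes tested, and CHR in 2 of 29 (6.9%), against 15.4% and 10.2%. Among genes that fell with nutlin-3, CCAAT was present in 7 of 14 member promoters, against 41.2% of all, and CHR in 2 of 14 (14.3%), against 14.9%. The core p53 motif was matched in 1 of 29, that of *BLM*, against 6.54% of all promoters. A match is a description of letters and not a site. The promoters below are those of 3 genes that fell with nutlin-3 and of *RAD51C*, which rose, each on its gene's strand and in lower case with the matched words in capitals.
RAD54L, chr1:46247438-46247737, plus strand: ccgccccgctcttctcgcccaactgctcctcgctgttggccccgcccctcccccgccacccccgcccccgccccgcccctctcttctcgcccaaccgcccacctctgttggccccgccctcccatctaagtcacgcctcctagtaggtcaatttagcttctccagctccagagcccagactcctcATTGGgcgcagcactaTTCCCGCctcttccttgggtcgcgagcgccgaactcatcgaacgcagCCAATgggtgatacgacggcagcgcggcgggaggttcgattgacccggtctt
BLM, chr15:90717096-90717395, plus strand: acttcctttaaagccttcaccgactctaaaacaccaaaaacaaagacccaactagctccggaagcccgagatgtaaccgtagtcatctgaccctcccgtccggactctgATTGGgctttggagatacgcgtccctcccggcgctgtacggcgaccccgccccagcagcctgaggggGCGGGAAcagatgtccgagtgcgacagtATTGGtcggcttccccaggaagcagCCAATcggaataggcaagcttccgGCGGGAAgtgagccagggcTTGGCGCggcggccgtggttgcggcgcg
BRIP1, chr17:61863479-61863778, minus strand: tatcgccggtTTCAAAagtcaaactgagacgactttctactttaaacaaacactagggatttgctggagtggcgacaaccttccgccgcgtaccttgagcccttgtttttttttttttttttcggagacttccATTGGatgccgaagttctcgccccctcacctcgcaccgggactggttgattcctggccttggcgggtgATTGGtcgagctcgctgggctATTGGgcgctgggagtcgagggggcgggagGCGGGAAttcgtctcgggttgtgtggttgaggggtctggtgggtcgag
RAD51C, chr17:58692323-58692622, plus strand: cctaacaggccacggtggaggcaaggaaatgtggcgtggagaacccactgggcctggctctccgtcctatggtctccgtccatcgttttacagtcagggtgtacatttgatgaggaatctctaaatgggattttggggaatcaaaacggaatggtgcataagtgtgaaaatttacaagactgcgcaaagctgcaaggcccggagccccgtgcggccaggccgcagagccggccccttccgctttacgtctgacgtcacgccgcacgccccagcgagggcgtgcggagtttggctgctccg
The E2F word of *RAD54L* begins 49 bases before the start, and *BLM* holds 3 such words, 1 of them before the start. *BRIP1* holds 1, with 3 CCAAT boxes and 1 CHR word. The *RAD51C* window holds none of the 3 words.

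Doxorubicin left the group as a whole near its background. Of the 28 members 16 were called (57.1%), beside 55.7% of all genes tested. There were 6 that rose, where 30.1% of all genes did, and 10 that fell (35.7%), where 25.6% did. The median log2 change was -0.07, beside 0.08 over all genes. The 12 members not called had changes between -0.24 for *RAD51D* and 0.33 for *FANCE*. The arrays did not overlap for 18 members, against 58.9% of all genes tested.

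On the probe sets used, genes of all 3 measured subunits of the break end complex fell with doxorubicin, where 25.6% of all genes did. *NBN*, the subunit that brings the ATM kinase to breaks, had 1324, 1268 and 1296 with doxorubicin against 2011, 2612 and 2077 in untreated cells. Its treated arrays lay below all untreated ones, with a change of -0.77 (SE 0.11, adjusted p = 1.6e-05). *MRE11* had 1179, 1055 and 1202 with doxorubicin against 1423, 1562 and 1424 in untreated cells, a change of -0.36 (SE 0.09). *RAD50*, the bridging subunit, had 678, 615 and 586 with doxorubicin against 784, 753 and 761 in untreated cells, a change of -0.29 (SE 0.09, adjusted p = 0.015). The *RAD50* call was lost without doxorubicin array 3 (adjusted p = 0.056). With the mean of all single-gene probe sets the calls of *MRE11* (-0.016, adjusted p = 0.94) and *RAD50* (-0.19, adjusted p = 0.20) were lost.

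Of 4 genes of the BRCA1 and BRCA2 complexes tested, 3 fell with doxorubicin, where 25.6% of all genes did. *BRCA1* had 1155, 1132 and 1087 with doxorubicin against 1776, 1639 and 1822 in untreated cells, a change of -0.63 (SE 0.08, adjusted p = 4.4e-06). *BARD1* had 1364, 1427 and 1439 against 2381, 2715 and 2766 in untreated cells, a change of -0.88 (SE 0.09). *BRIP1* fell by 0.40 (SE 0.08), with treated arrays at 1988 to 2147 against 2672 to 2810.5 in untreated cells. None of these 3 genes had treated arrays that reached the untreated ones. *PALB2* had 757, 761 and 782 with doxorubicin against 692, 584 and 727 in untreated cells, with no overlap and a change of 0.20 (SE 0.10, adjusted p = 0.11) that was not called. *RAD54B* had 276 to 309 with doxorubicin against 653 to 766 in untreated cells, a change of -1.19 (SE 0.13) that was the furthest below 0 among the members. *FANCC* fell by 0.54 (SE 0.12), *FANCG* by 0.44 (SE 0.09) and *SLX4* by 0.59 (SE 0.15). The *FANCC* call was lost against DMSO (-0.28, adjusted p = 0.063) and the *SLX4* call with the mean of all single-gene probe sets (-0.36, adjusted p = 0.0998).

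*RAD51C* stood out among the 6 members that rose with doxorubicin. Its signals were 9924, 8794 and 11075 with doxorubicin against 2949, 3203 and 3217 in untreated cells. The groups were far apart, with a change of 1.66 (SE 0.09, adjusted p = 2.7e-10), and its other probe set rose by 1.83. The other 5 rose by less. *RMI2* had 1097, 1135 and 1389 with doxorubicin against 723, 988 and 801 in untreated cells, a rise of 0.52 (SE 0.16, adjusted p = 0.0097). *RAD52*, an annealing protein, rose by 0.39 (SE 0.10), *RMI1* by 0.31 (SE 0.10), *FANCI* by 0.30 (SE 0.10) and *RAD54L* by 0.30 (SE 0.10). The *FANCI* arrays overlapped, at 4995 to 6062 with doxorubicin against 3983 to 5036 in untreated cells.

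**Figure D2:**
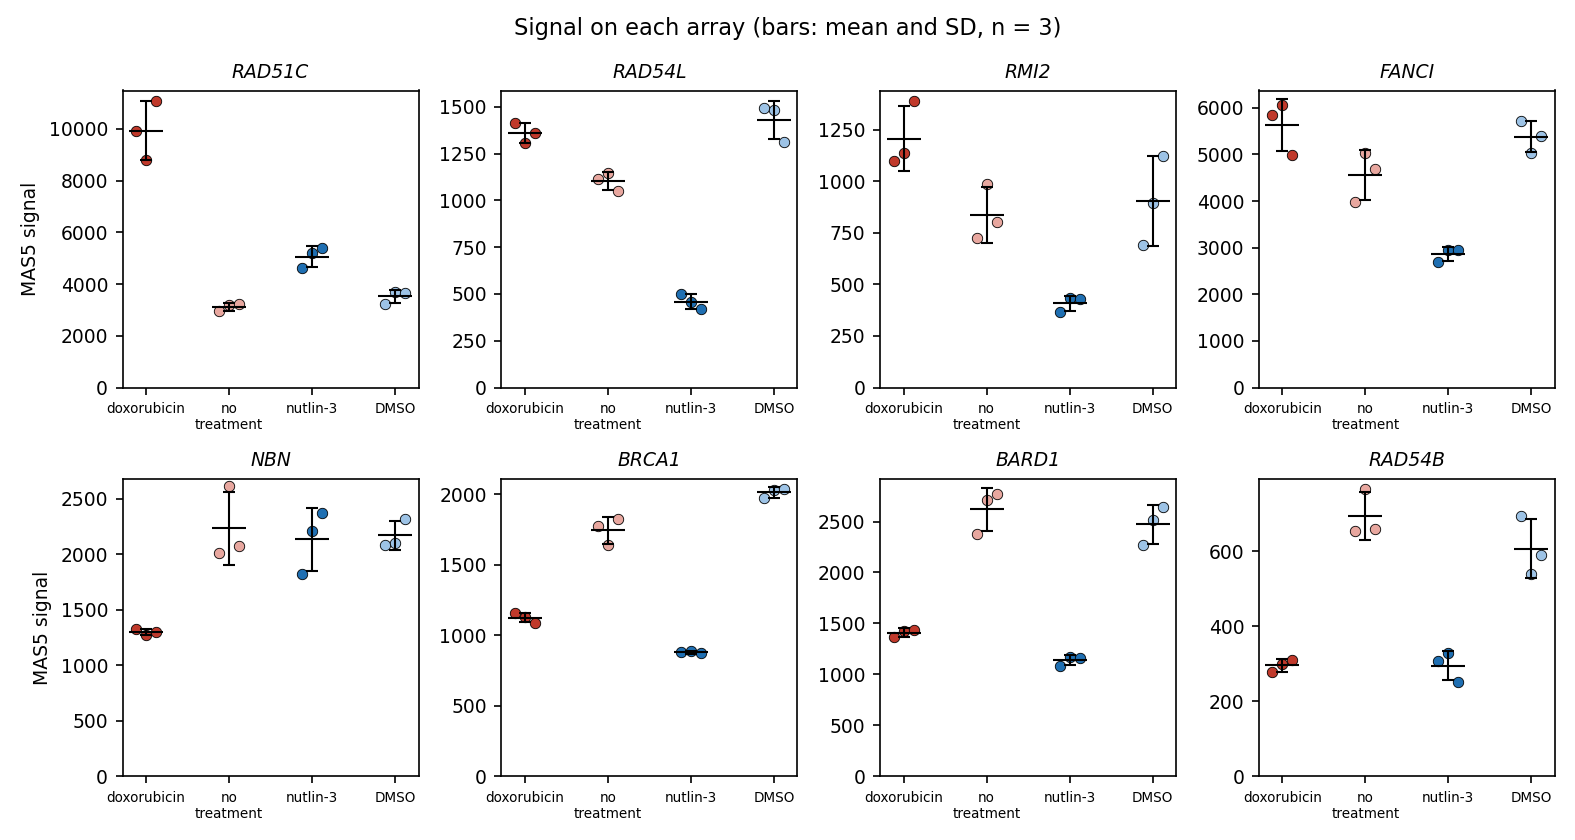
MAS5 signal (y axis, linear, from 0) of 8 members on each of the 12 arrays, with the mean and SD of 3 arrays per group. *RAD51C* is highest with doxorubicin, *RAD54L*, *RMI2* and *FANCI* are lowest with nutlin-3, *NBN* is lowest with doxorubicin, and *BRCA1*, *BARD1* and *RAD54B* are low with both agents.

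The smaller rises depended on the scaling and on the control. With arrays centred on their medians, which moved the median of all genes with doxorubicin from 0.08 to -0.10, only *RAD51C* was still called higher and 13 members were called lower (7.14% of the calls higher, beside 37.5%, and 38.4% beside 54.0% over all genes). Against DMSO 3 members were called higher and 12 lower (20.0% of the calls higher, and 52.7% beside 54.0% over all genes). *RAD54L* then had a change of -0.07 (SE 0.10). Without untreated array 1, 3 members were called higher and 10 lower (23.1% of the calls higher, and 53.3% over all genes). With only doxorubicin array 1, of the lowest *ACTB* ratio in its group, the median log2 change was -0.01 for the members and 0.09 over all genes.

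The agents differed in these genes. The difference of the responses, doxorubicin minus no treatment less nutlin-3 minus DMSO, was called above 0 for 15 of 28 members (53.6%) and below 0 for 2, where 39.5% of all genes tested were called, 21.8% above 0 and 17.7% below. The median difference of the members was 0.48, beside 0.07 over all genes. *RAD54L* had the furthest difference, 1.91 (SE 0.13, adjusted p = 2.2e-08), followed by *RMI2* at 1.62 (SE 0.22), *RMI1* at 1.39 (SE 0.14), *FANCI* at 1.21 (SE 0.14), *RAD51C* at 1.14 (SE 0.13) and *BLM* at 1.00 (SE 0.14). The sizes and their order depended on the controls. With the controls exchanged they were 1.17, 1.43, 1.68, 0.73, 0.79 and 0.39, in the same order of genes. Then 13 members were called above 0 and 6 below, while 51.4% of the calls over all genes were above 0, beside 55.3%. *FANCL* turned from 0.40 to a called -0.62 (adjusted p = 0.00066). For *BRIP1* (0.83, SE 0.12) and *BRCA1* (0.55, SE 0.11) both agents lowered the gene and nutlin-3 lowered it further. For *BRCA1*, though, the difference was 0.14 (adjusted p = 0.31) when the controls were exchanged. The other *BRIP1* probe set had -1.01 with doxorubicin and -1.36 with nutlin-3, and its difference of 0.34 (SE 0.20) was not called. *NBN* at -0.74 (SE 0.16) and *RAD50* at -0.45 (SE 0.13) were the members with a called difference below 0. For *BARD1* the difference was 0.23 (95% interval -0.04 to 0.49) and for *RAD54B* -0.18 (95% interval -0.57 to 0.21), neither past the threshold. The *BARD1* difference was called with the mean of all single-gene probe sets (0.55, adjusted p = 0.0064). It was also called with the controls exchanged (0.39, adjusted p = 0.016). Of its probe sets not used, a dimmer one had a called difference of 1.14 (SE 0.31), and the other had 0.27 (SE 0.16), not called.

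**Figure D3:**
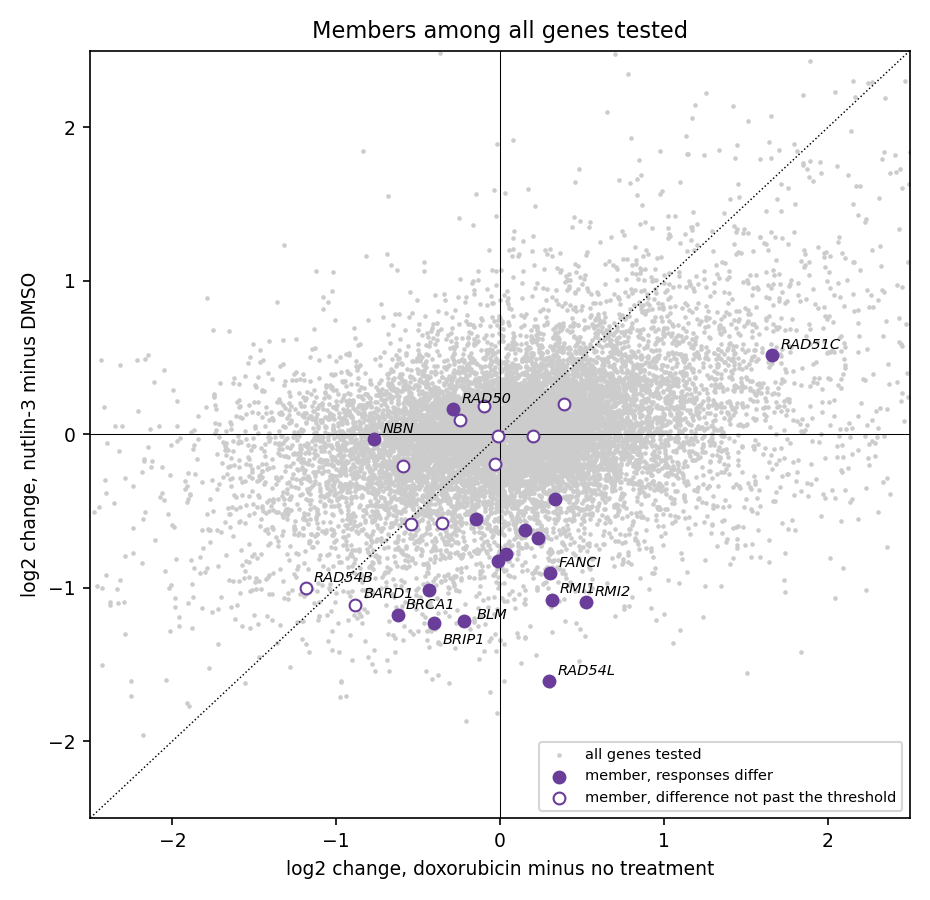
Log2 change with doxorubicin (x axis) against that with nutlin-3 (y axis) for all genes tested (grey, axes cut at 2.5) and the 28 members (purple), filled where the 2 responses differ at an adjusted p under 0.05. Of the 17 filled points, 15 lie below the dotted line of equal change and *NBN* and *RAD50* lie above it.

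By direction, 7 members fell with both agents (25.0%, where 7.41% of all genes did): *MRE11*, *BRCA1*, *BARD1*, *BRIP1*, *RAD54B*, *FANCC* and *FANCG*. The doxorubicin calls of *MRE11* and *FANCC* among them were lost in some settings, as given above, and the nutlin-3 call of *MRE11* was lost without probe sets ending in _x_at or _s_at (-0.39, adjusted p = 0.47). Another 10 fell with nutlin-3 and were not called lower with doxorubicin (35.7%, where 6.49% of all genes were). Of those, *RAD54L*, *FANCI*, *RMI1* and *RMI2* were called higher with doxorubicin. *BLM* (-0.22, SE 0.10, adjusted p = 0.063) and *FANCL* (-0.15, SE 0.09, adjusted p = 0.17) were not called with doxorubicin, though the doxorubicin arrays of *BLM* lay below its untreated ones. Both genes were called lower with doxorubicin after median centring and against DMSO (-0.52 for *BLM* and -0.66 for *FANCL*). *RAD51C* alone was called higher with both (3.57%, where 8.25% of all genes were). *NBN*, *RAD50* and *SLX4* (10.7%) fell with doxorubicin and were not called with nutlin-3, where 25.6% of all genes fell with doxorubicin and 7.41% with both agents. *PALB2*, *RAD51D*, *XRCC2*, *FANCE*, *FANCF* and *MUS81* (21.4%) were called with neither agent. The shares of all genes with these last patterns were not counted. Across the 28 members the changes with the 2 agents had a Spearman correlation of 0.18 and a Pearson correlation of 0.28, as a description over genes measured on the same arrays. Over the same genes, gene span on the reference had a Spearman correlation of -0.39 with the doxorubicin change and of -0.22 with the nutlin-3 change. The Pearson correlations, taken with the log10 of span, were -0.27 and -0.17.

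Cell cycle genes moved beside them. Of 15 S phase genes 14 fell with nutlin-3 and none rose, with a median of -1.13, while 9 fell and 3 rose with doxorubicin, with a median of -0.35. All 15 had a called difference above 0 between the agents. Of 15 genes of G2 and mitosis 15 fell with nutlin-3 (median -0.87), and 14 fell and 1 rose with doxorubicin (median -0.84), with 2 differences called above 0 and 4 below. Over all genes tested 13.9% fell and 12.5% rose with nutlin-3, and 25.6% fell and 30.1% rose with doxorubicin. The difference was called above 0 for 21.8% of all genes and below 0 for 17.7%. In RNA from whole cultures, fewer cells in a phase and less transcript per cell cannot be told apart.

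Other genes of these pathways came from a list of 62, of which 56 were annotated and tested. With nutlin-3 17 fell (30.4%, where 13.9% of all genes did) and 2 rose (3.6%, where 12.5% did), with a median of -0.17. *EXO1*, a resection nuclease, fell by 1.32 (SE 0.11), *DNA2*, another, fell by 1.19 (SE 0.11), *H2AX*, the histone marked at breaks, by 1.01 (SE 0.12) and *UBE2T*, the ubiquitin-conjugating enzyme of the Fanconi pathway, by 0.92 (SE 0.10). The rises were *ERCC1*, a subunit of a crosslink nuclease, by 0.83 (SE 0.10) and *FAAP20* by 0.73 (SE 0.12). With doxorubicin 14 rose (25.0%) and 13 fell (23.2%), near the shares of 30.1% and 25.6% over all genes, with a median of 0.06. *BABAM2*, a subunit of a BRCA1 complex, fell by 1.73 (SE 0.10), *PARPBP*, which restrains recombination, by 1.58 (SE 0.12), *H2AX* by 1.46 (SE 0.12) and the helicase gene *WRN* by 0.98 (SE 0.15). *SWSAP1*, which acts in recombination, rose by 0.85 (SE 0.19), *RECQL5* by 0.69 (SE 0.15), *RNF168*, a ubiquitin ligase at breaks, by 0.69 (SE 0.14) and *HROB* by 0.68 (SE 0.22).

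Between the controls 14.3% of members were called, beside 14.1% of all genes tested. In DMSO against untreated cells 4 of 28 were called higher (14.3%, where 8.14% of all genes were) and 0 lower, with 5.98% lower over all genes. *FANCL* was higher by 0.51 (SE 0.09), *FANCG* by 0.38 (SE 0.09), *RAD54L* by 0.37 (SE 0.10) and *BLM* by 0.30 (SE 0.10). Without DMSO array 1, DMSO array 2 or untreated array 3, the count was 2 of 28. The *BLM* call was lost in 13 of the alternative settings. Of the probe sets not used, 1 of *BARD1* was called lower in DMSO (-0.72, SE 0.11, adjusted p = 0.00063), where the one used had -0.08 (SE 0.09). The other *RAD51C* probe set was called higher in DMSO (0.43, SE 0.10, adjusted p = 0.0082). The median log2 change of the members was 0.12, beside 0.02 over all genes. All DMSO arrays also lay above all untreated ones for *MRE11*, *RAD50*, *BRCA1*, *RAD51C*, *RAD52*, *FANCE*, *EME1* and *SLX4*, which were not called. They lay below for *FANCC*, also not called. Over all genes tested 33.5% had no overlap.

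Probe sets of the same gene were called in opposite directions for none of the 16 members with several past the filter, with either agent or for the difference. With nutlin-3 every such probe set was called the same way for 6 of them, with doxorubicin for 3. All 3 *BARD1* probe sets fell with nutlin-3, by 0.95 to 1.11, and 2 of them fell with doxorubicin. For *NBN* 4 of 5 fell with doxorubicin, by 0.77 to 1.15, while the dimmest, of a mean signal of 82.0, had 0.05 (SE 0.27). For *FANCI* 1 of 3 rose with doxorubicin and the others had -0.08 and -0.04, whereas all 3 fell with nutlin-3. For *FANCF* and *RAD51D* the probe set not used fell with doxorubicin, by 0.83 and 0.92, and the one used was not called. For *MRE11* a dim probe set with a mean signal of 59.2 had 0.32 (SE 0.34) with doxorubicin, not called.

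**Figure D4:**
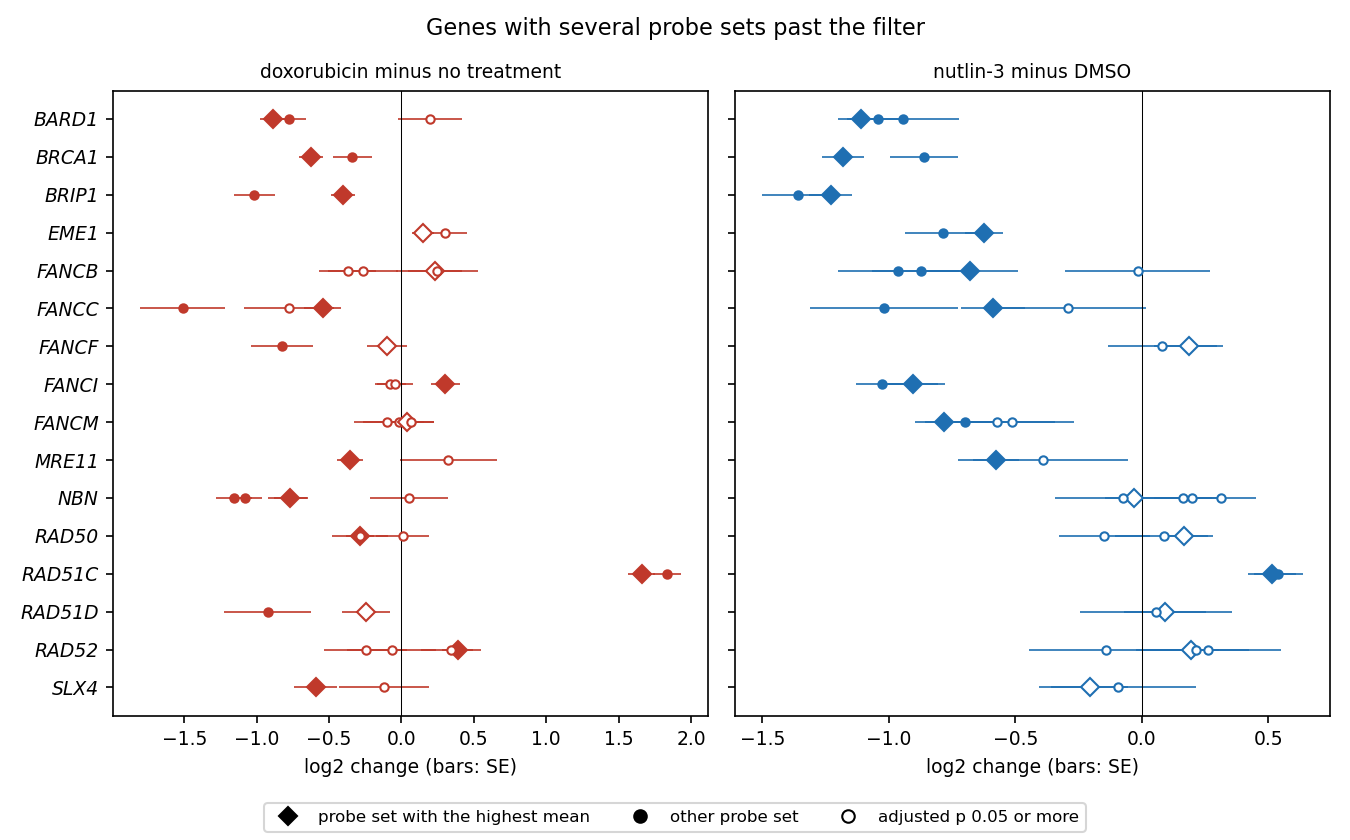
Log2 change (x axis, bars are SE) of every probe set past the filter for the 16 members with several, with doxorubicin minus no treatment (left) and nutlin-3 minus DMSO (right). Diamonds mark the probe set with the highest mean, circles the others, and open symbols an adjusted p of 0.05 or more. Filled symbols of a gene lie on the same side of 0 throughout.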

How the data were processed

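The authors deposited 1 linear intensity (signal) per probe set and array for 54675 probe sets, made with MAS5 per the submitters' processing notes; its settings and version are not given in the sources used here. Each array's trimmed mean lay near 500 (499.93 to 499.94), so the intensities were taken as scaled by the authors. Of the probe sets, 41097 had 1 gene symbol, 1801 had several, and 11721 that were not controls had none. The 62 controls, 6 of them with a symbol, were left out of the tests. Symbols were updated by Entrez identifier from the RefSeq gene table.

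Log2(signal + 16) was fitted over all 4 groups with limma 3.58.1 in R 4.3.3 (lmFit, eBayes with intensity trend), with Benjamini-Hochberg adjustment over 13673 genes. Probe sets under the 40th percentile of mean signal (49.3) were left out, and each gene was read by its brightest single-gene probe set. A fold change on this scale understates the change of dim genes, and levels were not compared between genes. The number of arrays limits the precision. The fit was tested on simulated data.

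Named genes were the members, *MDM2* and *CDKN1A*, and per agent up to 4 called rises and 4 called falls among the other pathway genes. Cell type markers are given by name and as summed signals, *ACTB*, *GAPDH* and Dap as ratios of 3' to 5' signal, and cell cycle lists by counts. The members and lists were chosen with earlier results of these data known. Alternatives covered normalization, pseudocount, filter, probe set choice, fit, replicate block, control group, threshold and leaving out each array, and, chosen after seeing the data, leaving out doxorubicin arrays 2 and 3.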

Additional observations from a re-analysis of the deposited data

Results flagged for a closer look

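For 4 of 28 members (14.3%) the agents gave called changes in opposite directions. The test of the difference itself, doxorubicin response minus nutlin-3 response, passed the threshold for them in the limma fit. The difference was 1.91 for *RAD54L*, 1.62 for *RMI2*, 1.39 for *RMI1* and 1.21 for *FANCI* on the log2 scale. The nutlin-3 falls of these genes were called in every planned setting at an adjusted p under 0.05, while each doxorubicin rise lost its call in at least 1 of them. The share of all genes with such opposite calls was not counted. Those higher with doxorubicin and lower with nutlin-3 are part of the 6.49% that fell with nutlin-3 and were not called lower with doxorubicin.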

How the results depend on the processing

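At an adjusted p under 0.05, 14 of 18 nutlin-3 calls, 6 of 16 doxorubicin calls, 9 of 17 differences and 2 of 4 DMSO calls held in every planned setting; the cause of the losses was not tested. Members higher with doxorubicin numbered 6, but 1 with median centring and 3 with the other control or at an adjusted p under 0.01. Members higher with nutlin-3 numbered 3 with the other control. Differences below 0 numbered 2, but 6 with the other control and 1 at 0.01 or without probe sets ending in _x_at or _s_at. At 0.01, 2 members were called for DMSO. Over all genes, nutlin-3 calls numbered 5432 with the other control and 2327 at 0.01, and DMSO calls 832 at 0.01. Leaving out 1 array gave 3 to 6 members higher and 9 to 11 lower with doxorubicin (13 to 17 in all), 1 higher and 16 to 18 lower with nutlin-3 (17 to 19 in all), 17 differences, and 2 to 5 members for DMSO. Over all genes it gave 6979 to 7644 calls with doxorubicin, 2839 to 3753 with nutlin-3, 4807 to 5331 differences and 1100 to 2091 for DMSO. Direction turned for *MRE11* (0.32) and *NBN* (0.054) with doxorubicin and the *NBN* difference (0.13) without probe sets ending in _x_at or _s_at, which leaves their dim probe sets. With the other control it turned for *RAD54L* with doxorubicin (-0.070) and for the differences of *MRE11* (-0.31), *FANCG* (-0.19) and *FANCL* (-0.62). Deviations of same-numbered arrays correlated at -0.09 to -0.02 between doxorubicin and untreated arrays, -0.01 to 0.17 between nutlin-3 and DMSO, and 0.01 to 0.10 between DMSO and untreated arrays, so the numbers were not taken as pairs. With the replicate number as a block 16 members were called with doxorubicin, 18 with nutlin-3, 17 for the difference and 5 for DMSO.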
